A study of Mus musculus with 36 samples.

Results

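The comparison set 9 Lewis lung carcinoma tumours with the highest neutrophil score against 9 with the lowest, out of 28 tumours kept from 30 on the arrays. The line, LLC for short, comes from a lung cancer of a mouse and forms tumours when placed in mice. All hosts were male, and they were young or middle-aged and either unirradiated or given iron ions (56Fe) at 0.2 Gy in each of 5 exposures. Transcripts of tumour tissue were measured on Illumina mouse WG-6 bead arrays, 1 array a tumour, beside 6 arrays of LLC cells. The design text calls the tumours biological samples without saying if 1 mouse gave 1 tumour, so p-values measure only the spread between these samples.

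The groups were not the study's own. A tumour entered if the 75th percentile of its unnormalized signal was over 110, which left out young irradiated replicates 6 and 8. Its score was the mean log2 of the authors' normalized signal, with values under 64 set to 64, over 5 genes of neutrophils: S100a8 and S100a9 (the 2 chains of calprotectin), Csf3r (the receptor for granulocyte colony-stimulating factor), Il1r2 (a decoy receptor for interleukin 1) and Mmp9 (gelatinase B). The 9 neutrophil-rich tumours held 4 from young unirradiated, 1 from young irradiated, 2 from middle-aged unirradiated and 2 from middle-aged irradiated hosts. The 9 neutrophil-poor tumours held 2 from young unirradiated, 2 from young irradiated, 4 from middle-aged unirradiated and 1 from middle-aged irradiated hosts. The other 10 tumours lay between them. Since the tumours were selected on measured values of the same arrays, a test on any other gene says only that it moved with the score on these arrays.

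Neutrophils are short-lived granulocytes made in the bone marrow and drawn into tissue by chemokines such as CXCL1 and CXCL2, which bind the receptors CXCR1 and CXCR2 on their surface. In tumours they can release proteases, interleukin 1 and factors for vessel growth, and they are found near necrosis and poorly oxygenated tissue. In whole tumour tissue, fewer cells of a type and less RNA per cell cannot be told apart.

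The score ran from 10.07 to 11.16 with a median of 10.42 in the 9 neutrophil-rich tumours, and from 8.53 to 9.29 with a median of 9.02 in the 9 neutrophil-poor tumours. The middle tumours ran from 9.31 to 9.91, so the steps at both edges were small: the lowest neutrophil-rich tumour stood at 10.07 beside a middle tumour at 9.91, and the highest neutrophil-poor tumour at 9.29 beside a middle tumour at 9.31. Tumours of all 4 host groups stood at both ends. The median score was 9.65 in young irradiated and 9.84 in young unirradiated hosts (n = 6 and 10), and 9.91 in middle-aged irradiated and 9.29 in middle-aged unirradiated hosts (n = 5 and 7). On the 6 arrays of LLC cells the score lay between 7.31 and 7.41, below every tumour.

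**Figure D1:**
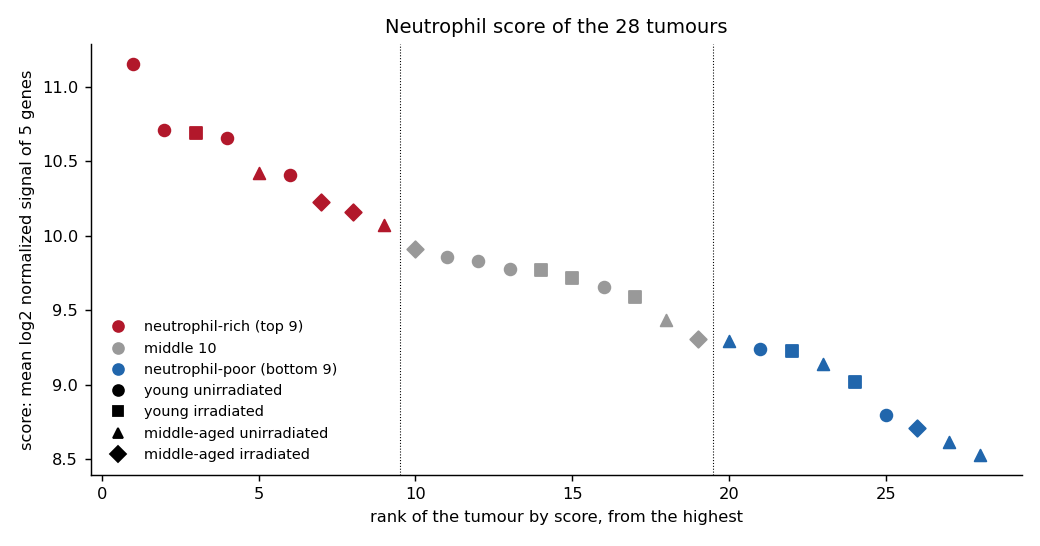
Neutrophil score of the 28 tumours, ranked from the highest on the x axis; the y axis is the mean log2 normalized signal of 5 genes, colour gives the part of the ranking and shape the host group. The top 9 lie between 10.07 and 11.16 and the bottom 9 between 8.53 and 9.29, with all 4 host groups at both ends.

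The 5 score genes are described without a test, because they chose the tumours. S100a8 stood at 12.52 to 13.44 in neutrophil-rich tumours and 9.78 to 11.68 in neutrophil-poor tumours on the authors' log2 scale. S100a9 stood at 11.51 to 13.03 in neutrophil-rich tumours and 8.67 to 10.37 in neutrophil-poor tumours. Csf3r and Il1r2 also had no overlap between the groups. Mmp9, at 9.19 to 10.87 in neutrophil-rich tumours and 8.67 to 10.11 in neutrophil-poor tumours, was the 1 score gene whose groups overlapped, and young unirradiated replicate 2 held its highest value.

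Array brightness and detection overlapped between both ends, though their medians differed. The 75th percentile of unnormalized signal had a lowest, median and highest value of 160, 213 and 863 in neutrophil-rich tumours, and of 170, 260 and 304 in neutrophil-poor tumours. The 3 tumours with the highest scores stood at 160, 178 and 186. Between 17329 and 19843 probes were detected in neutrophil-rich tumours (median 19173) and between 18028 and 19533 in neutrophil-poor tumours (median 18359). The mean level of the 17 skeletal muscle genes with a probe was over 8 on the log2 scale in 2 neutrophil-rich tumours (middle-aged irradiated replicate 4 and young unirradiated replicate 8) and in 2 neutrophil-poor tumours (middle-aged irradiated replicate 1 and young unirradiated replicate 7). All differences below are log2 differences of background-corrected, quantile-normalized intensity, neutrophil-rich minus neutrophil-poor, with the standard error (SE) and the adjusted p of limma, which was fitted on 9 and 9 tumours across all genes.

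Of 10483 genes tested, 506 passed an adjusted p of 0.05 (4.83%). Of these, 320 were higher in neutrophil-rich tumours (3.05% of genes tested) and 186 were lower (1.77%). The authors' normalized values gave 383 higher and 112 lower. Leaving out 1 tumour moved the total to 805, with 341 lower, without young unirradiated replicate 7, and to 325, with 94 lower, without middle-aged unirradiated replicate 3; without middle-aged unirradiated replicate 2, 113 were lower. The higher genes changed more: 85 of 320 differed over 2-fold and 11 over 4-fold, against 11 of 186 and 0 among the lower genes. The 2 groups of tumours did not overlap for 51 of the higher and 12 of the lower genes. Of the higher genes, 26.3% were detected on none of the 6 LLC cell arrays, against 18.3% of the lower genes and 8.47% of all genes tested. Across all genes tested the median difference was -0.02.

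Neutrophil genes that had no part in the score gave more calls than any other list. Of 25 tested members of a list of 37 neutrophil markers, 19 rose (against 3.05% of all genes tested), 0 fell, and 11 had no overlap between the groups. Of all 10483 genes tested, 52 lay higher in neutrophil-rich tumours without overlap. The median difference of the 25 was 1.17, and 0.72 on the authors' normalized values. Another 8 of the 33 members with a probe did not pass the detection filter, which a gene can pass through the group where it is high. Of the 25, 19 were detected on at least 5 neutrophil-poor arrays, and 13 of these 19 rose. With no filter on detection 19 of all 33 members with a probe rose, against 1.33% of 19052 genes. Of the tested members, 18 of 25 were detected on none of the 6 LLC cell arrays.

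Retnlg, which encodes a resistin-like protein of granulocytes, had the largest difference of all genes tested. Its lowest, median and highest log2 levels were 8.96, 9.64 and 9.87 in neutrophil-rich tumours and 5.25, 6.37 and 7.61 in neutrophil-poor tumours. Every neutrophil-rich tumour lay above every neutrophil-poor one, and the difference was 3.20 (SE 0.26, adjusted p = 3.09e-07), which is 9.16-fold. Slpi, the secretory inhibitor of leukocyte proteases, stood at 10.05, 10.85 and 11.79 in neutrophil-rich tumours and 7.13, 8.43 and 9.54 in neutrophil-poor tumours. Its groups did not overlap either, with a difference of 2.58 (SE 0.30, adjusted p = 3.14e-05), and it was also detected on 6 of 6 LLC cell arrays. Hdc, histidine decarboxylase, which makes histamine, stood at 10.10, 10.80 and 12.16 in neutrophil-rich tumours and 7.85, 9.11 and 9.38 in neutrophil-poor tumours. That was a difference of 2.08 with no overlap (SE 0.26, adjusted p = 8.77e-05).

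The chemokine receptors of neutrophils moved the same way. Cxcr2 had levels of 5.87, 6.58 and 7.88 in neutrophil-rich tumours and 4.73, 4.94 and 5.66 in neutrophil-poor tumours. It was detected on 9 of 9 neutrophil-rich and 1 of 9 neutrophil-poor arrays, so its low end is close to background, and the difference was 1.77 (SE 0.24, adjusted p = 0.00059 with no filter on detection). Cxcr1 had levels of 6.56, 7.29 and 7.97 in neutrophil-rich tumours and 4.86, 5.30 and 6.01 in neutrophil-poor tumours. It was detected on 9 of 9 neutrophil-rich and 2 of 9 neutrophil-poor arrays, so its low end is also close to background. It rose by 1.99 (SE 0.18, adjusted p = 5.82e-06 with no filter on detection) without overlap. Fpr2, a receptor for formylated peptides of bacteria and mitochondria, rose by 1.15 (SE 0.20, adjusted p = 0.00163) without overlap.

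Among the other markers, Pglyrp1, a peptidoglycan recognition protein of neutrophil granules, rose by 1.56 (SE 0.13, adjusted p = 3.09e-07). Cd177, a surface protein of neutrophils, was detected on 3 of 9 neutrophil-poor arrays and rose by 1.65 (SE 0.20, adjusted p = 0.000161 with no filter on detection). Asprv1, an aspartic protease, was not well above background on any neutrophil-poor array. It passed the detection filter through the 9 neutrophil-rich arrays alone. In the fit with no such filter it was at least 2.36-fold higher in neutrophil-rich tumours (adjusted p = 4.44e-07), with the bound set by the dimmest probes detected on each array. Stfa1, a stefin (an intracellular inhibitor of cysteine proteases), passed through the same 9 arrays and was at least 1.80-fold higher (adjusted p = 1.63e-05 with no filter). The stefins Stfa1, Stfa2 and Cstdc4 are near-identical copies, so their probes may share signal and their values are uncertain one by one.

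Acod1, which makes itaconate, rose by 1.17 (SE 0.17, adjusted p = 0.000434), and G0s2, an inhibitor of fat breakdown, by 1.97 (SE 0.29, adjusted p = 0.000468). Hcar2, a receptor for nicotinic acid and ketone bodies, rose by 2.15 (SE 0.31, adjusted p = 0.000361). The smallest changes that passed were in the lectin receptor Clec4e, in Trem3, in a second lectin receptor, Clec4d, and in Lrg1, with differences of 0.62, 0.78, 0.86 and 0.87. Tested members that did not pass were Selplg at 0.06, Mrgpra2b at 0.00, Ptafr at -0.03, Ccrl2 at -0.04, Trem1 at 0.33 and Hp at 0.73. A second probe of Mrgpra2b, detected on 16 of the 18 arrays, differed by 1.13. Mrgpra2b and Ptafr were also detected on 6 of 6 LLC cell arrays.

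A list of genes active in neutrophil precursors held granule proteins beside the transcription factor Gfi1 and the oxidase subunits Ncf1, Ncf4 and Cyba. Of 11 tested, 3 were called higher and 0 lower, against 3.05% and 1.77% of all genes tested. The median difference was 0.51, and -0.07 over the members detected on at least 9 of the 18 arrays. With no filter on detection 1 of the 18 members with a probe, Lcn2, rose, and with host group in the model 1 was higher and 1 lower (Ncf4, by -0.44, adjusted p = 0.0358). Leaving out 1 tumour gave 1 to 4 higher and at most 1 lower; the count was 1 without young irradiated replicate 7, and 1 was lower without middle-aged unirradiated replicate 1. Lcn2, the iron-sequestering lipocalin 2, stood at 8.55, 8.83 and 10.45 in neutrophil-rich tumours and 5.86, 6.25 and 8.11 in neutrophil-poor tumours. The groups did not overlap, and the difference was 2.53 (SE 0.29, adjusted p = 3.14e-05). Ltf, lactoferrin, had one high value of 10.08 in neutrophil-rich tumours beside a median of 6.42, against 4.85 to 6.18 in neutrophil-poor tumours, and rose by 1.88 (SE 0.48, adjusted p = 0.0263). With no filter on detection Ltf had an adjusted p of 0.0519 and with host group in the model 0.0583, and leaving out middle-aged irradiated replicate 1 or young irradiated replicate 7 also ended the call (0.0503 and 0.0512); the highest over its alternatives was 0.0729. Ngp, a granule protein, was detected on 5 neutrophil-rich and 0 neutrophil-poor arrays and was tested only because the neutrophil-rich arrays carried it past the filter. By the bound used for Asprv1 the mean of Ngp was 1.15-fold higher in neutrophil-rich tumours. Undetected neutrophil-rich arrays entered that mean, so the value is no lower limit. With no filter Ngp did not pass (adjusted p = 0.079). Chil3 differed by 1.14 (adjusted p = 0.0541) and did not pass, but was called higher in 6 of 34 alternatives. Ncf1 and Ncf4 differed by -0.63 and -0.37 (adjusted p = 0.0818 and 0.0985) and did not pass either. With the score as a continuous number Ncf1 was called lower, by -0.77 (adjusted p = 0.00911). It was also called lower with 7 tumours at each end, by -0.85 (adjusted p = 0.0231). Of the 11 tested, 7 lay above 0 and 4 below.

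**Figure D2:**
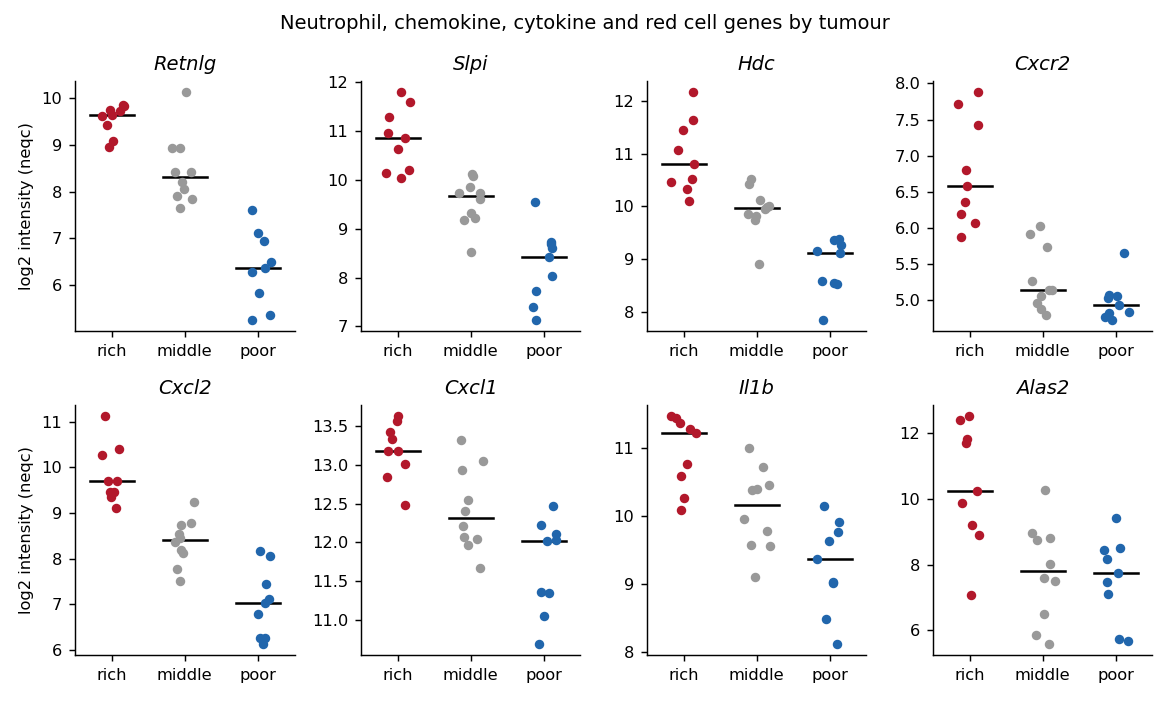
Log2 intensity of 8 genes in single tumours (points) of the neutrophil-rich, middle and neutrophil-poor groups (n = 9, 10 and 9), with the group median as a bar. For Retnlg, Slpi, Hdc, Cxcr2, Cxcl2 and Cxcl1 every neutrophil-rich tumour lies above every neutrophil-poor tumour, while Il1b and Alas2 overlap.

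Chemokines that draw neutrophils were higher in the same tumours. Of 12 tested chemokine, chemokine receptor and growth factor genes of this axis, 6 rose (against 3.05% of all genes tested) and 0 fell, with a median of 1.12. Cxcl2, a ligand of CXCR2, stood at 9.12, 9.70 and 11.13 in neutrophil-rich tumours and 6.13, 7.03 and 8.17 in neutrophil-poor tumours. The groups did not overlap and the difference was 2.82 (SE 0.30, adjusted p = 1.24e-05), which is 7.05-fold. Cxcl1, another CXCR2 ligand, stood at 12.49, 13.19 and 13.63 in neutrophil-rich tumours and 10.69, 12.01 and 12.46 in neutrophil-poor tumours. It rose by 1.49 (SE 0.22, adjusted p = 0.00039), again without overlap. Cxcl1 was detected on 6 of 6 LLC cell arrays with a median level of 8.49, below every tumour, and Cxcl2 on 0 of 6.

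The other members that rose were Ccl4 at 1.30 (SE 0.19, adjusted p = 0.000434), Ccl3 at 1.71, Ppbp at 1.81 and the neutrophil receptor Cxcr1, given above. Ccl3 and Ccl4 are inflammatory chemokines, and Ppbp, a chemokine stored in platelets, also binds CXCR2. Csf3, the growth factor that binds the receptor encoded by the score gene Csf3r, differed by 0.61 (adjusted p = 0.14) and did not pass. Cxcl12, which retains neutrophils in marrow, differed by 0.30 and its receptor Cxcr4 by 0.07, and neither passed.

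The promoters of Cxcl2 and Cxcl1 are shown because both chemokine genes rose without overlap, and that of Lcn2 because it led the granule proteins. The windows run from 250 bases before to 50 bases after the start of the gene in RefSeq (GRCm38.p6), printed 5′ to 3′ on the strand of the gene: chr5:90903649-90903948 on the plus strand for Cxcl2, chr5:90890995-90891294 on the plus strand for Cxcl1, and chr2:32387690-32387989 on the minus strand for Lcn2. Capitals mark, for Cxcl2 and Cxcl1, the letters that match the NF-kB consensus on either strand and, for Lcn2, a match to the C/EBP core TTGCNNAA searched on both strands.
Cxcl2: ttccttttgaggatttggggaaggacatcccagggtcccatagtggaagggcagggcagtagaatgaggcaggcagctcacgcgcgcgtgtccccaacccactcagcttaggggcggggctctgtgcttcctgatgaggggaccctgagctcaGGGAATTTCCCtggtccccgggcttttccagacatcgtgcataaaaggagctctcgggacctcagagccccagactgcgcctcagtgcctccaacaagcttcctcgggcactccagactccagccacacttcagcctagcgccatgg
Cxcl1: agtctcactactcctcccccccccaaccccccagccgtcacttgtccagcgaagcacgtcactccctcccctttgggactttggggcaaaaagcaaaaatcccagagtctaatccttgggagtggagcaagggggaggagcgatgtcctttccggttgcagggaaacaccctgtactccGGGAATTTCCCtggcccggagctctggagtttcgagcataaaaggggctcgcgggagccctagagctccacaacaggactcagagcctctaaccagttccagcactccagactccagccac
Lcn2: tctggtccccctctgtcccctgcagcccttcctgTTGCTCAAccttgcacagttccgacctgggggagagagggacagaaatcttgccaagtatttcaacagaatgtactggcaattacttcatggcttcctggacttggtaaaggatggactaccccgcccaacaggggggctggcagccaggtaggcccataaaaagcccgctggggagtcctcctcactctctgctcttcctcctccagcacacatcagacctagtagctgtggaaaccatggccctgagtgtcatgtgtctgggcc
Cxcl2 and Cxcl1 hold the same run, GGGAATTTCCC, at -97 to -87 and at -71 to -61 from the start, where a match on each strand overlaps the other. A match to the NF-kB consensus is present in 8.46% of the 32851 promoter windows of the table, and a match to TTGCNNAA in 10.8%. Osm and Bhlhe40 had no window to search. Among the other genes searched, the NF-kB consensus was also found in windows of Nfkbia, Car9 and Vegfa (1 of 2 windows). It was not found in those of Il1b, Lcn2, Retnlg, Slpi, Hdc and Adm. TTGCNNAA was also found in the windows of Retnlg and Slpi. It was not found in those of Cxcl2, Cxcl1, Il1b, Nfkbia, Hdc, Vegfa, Adm and Car9. The match is a description of letters and no evidence that a factor binds there.

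Interleukin 1 and related inflammatory genes rose in part. Of 18 tested, 6 rose (against 3.05% of all genes tested) and 0 fell, with a median difference of 0.45. Il1b, interleukin 1 beta, stood at 10.09, 11.22 and 11.46 in neutrophil-rich tumours and 8.13, 9.36 and 10.15 in neutrophil-poor tumours. The groups overlapped by 1 neutrophil-rich tumour, and the difference was 1.67 (SE 0.26, adjusted p = 0.000674). Osm, oncostatin M, a cytokine of the interleukin 6 family, rose by 1.58 (SE 0.26, adjusted p = 0.00132), while its second detected probe differed by 0.69.

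Il33, an alarmin cytokine of the interleukin 1 family, rose by only 0.72 (SE 0.11, adjusted p = 0.000412), yet its groups did not overlap, at 11.94 to 12.42 in neutrophil-rich tumours and 10.95 to 11.75 in neutrophil-poor tumours. Nfkbia and Tnfaip3, which both restrain NF-kB signalling, rose by 0.71 and 0.75, and Ptges, a prostaglandin E synthase, by 0.53. The receptor Il1r1 differed by -0.13, Casp1 by 0.07 and Il18 by 0.04, and none of them passed. Il1b and Osm were detected on 0 of 6 LLC cell arrays and Nfkbia on 6 of 6.

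**Figure D3:**
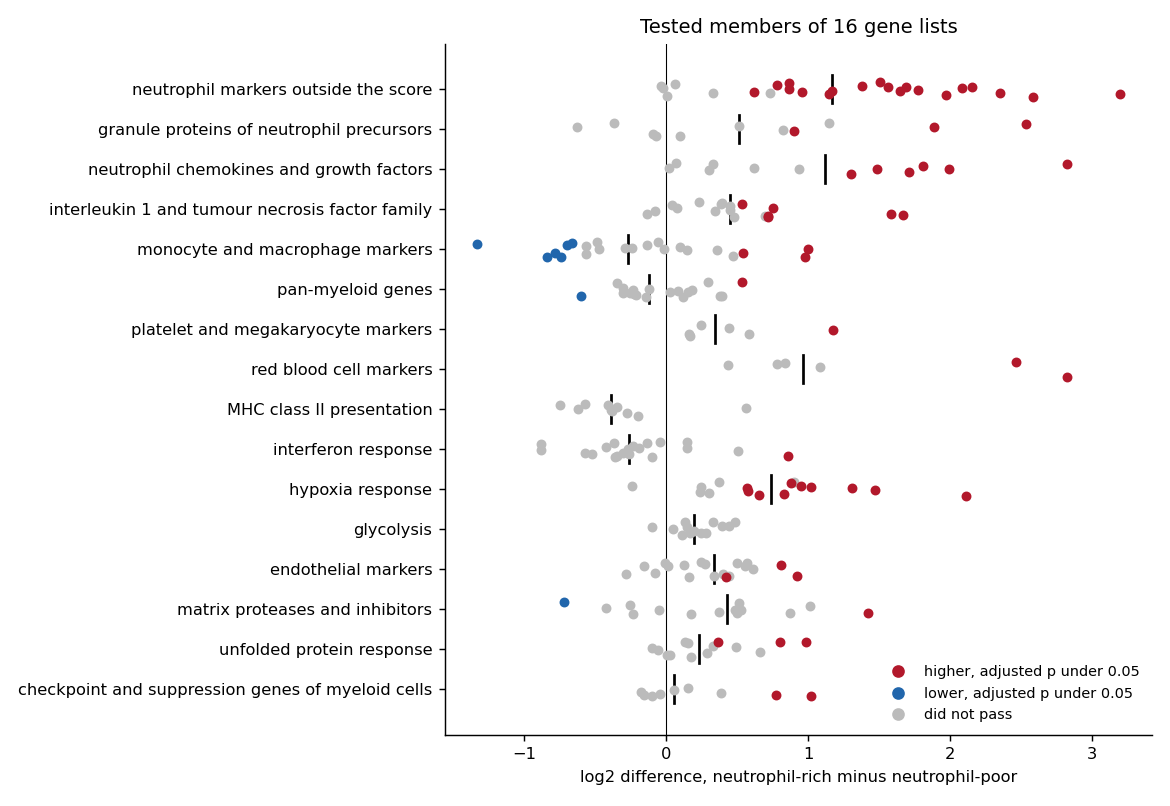
Log2 difference, neutrophil-rich minus neutrophil-poor, of the tested members of 16 gene lists; each point is a gene, bars are list medians, and colour marks genes past an adjusted p of 0.05 in limma (9 against 9 tumours). The neutrophil, chemokine and hypoxia lists have medians of 1.17, 1.12 and 0.74, and the macrophage list has members past the test on both sides of 0.

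Genes that respond to low oxygen were higher in neutrophil-rich tumours. Of 16 tested, 10 rose (against 3.05% of all genes tested) and 0 fell, with a median of 0.74. There were 4 members higher without overlap, against 52 of all 10483 genes tested. Unlike the neutrophil markers, 15 of these 16 genes were detected on 6 of 6 LLC cell arrays. Vegfa, the vascular growth factor, stood at 10.46, 10.81 and 11.21 in neutrophil-rich tumours and 8.61, 9.61 and 10.07 in neutrophil-poor tumours. The groups did not overlap, and the difference was 1.31 (SE 0.17, adjusted p = 8.87e-05).

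Adm, adrenomedullin, a vasodilator peptide, stood at 9.28, 10.07 and 11.43 in neutrophil-rich tumours and 6.78, 8.27 and 9.11 in neutrophil-poor tumours, and rose by 2.11 (SE 0.29, adjusted p = 0.000221). Car9, carbonic anhydrase 9, stood at 7.79, 8.44 and 10.09 in neutrophil-rich tumours and 6.41, 7.04 and 7.51 in neutrophil-poor tumours, and rose by 1.47 (SE 0.25, adjusted p = 0.00163). Bhlhe40, a transcriptional repressor, rose by 0.88 (SE 0.13, adjusted p = 0.000527). For all 3 the groups did not overlap. The other 6 that rose were Ndrg1, Ankrd37, P4ha2, Pdk1, Slc2a1 and Egln3, by 1.02, 0.95, 0.83, 0.65, 0.58 and 0.57. These include the glucose transporter GLUT1 (Slc2a1), a kinase that limits entry of pyruvate into mitochondria (Pdk1) and an oxygen-sensing prolyl hydroxylase (Egln3).

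Car9 was the 1 member of the list that was undetected on all 6 LLC cell arrays, and its promoter is shown for that reason (RefSeq GRCm38.p6, chr4:43506776-43507075, plus strand). Capitals mark the ACGTG core of hypoxia response elements, here read on the opposite strand as CACGT.
Car9: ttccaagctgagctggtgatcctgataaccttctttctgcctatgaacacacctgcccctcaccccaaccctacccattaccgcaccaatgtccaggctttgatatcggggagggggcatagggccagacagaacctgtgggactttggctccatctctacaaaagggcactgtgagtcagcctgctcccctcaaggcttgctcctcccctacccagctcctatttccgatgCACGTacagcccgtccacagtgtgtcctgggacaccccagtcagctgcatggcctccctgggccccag
The core lies at -18 to -14 from the start. It is present on either strand in 19.6% of the 32851 windows. It was also found in windows of Vegfa (1 of 2 windows), Slpi and Cxcl1 (in Cxcl1 at -196 to -192, not marked above). It was not found in those of Adm, Cxcl2, Il1b, Nfkbia, Lcn2, Retnlg and Hdc. The Car9 window also holds a match to the NF-kB consensus, at 10 to 19 after the start, which the capitals do not mark.

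The enzymes of glycolysis did not pass. Of 13 tested, 0 were called by limma (4 at an unadjusted p under 0.05) and 12 lay above 0, with a median of 0.20; Pgk1 differed by 0.33 (SE 0.12, adjusted p = 0.0983) and Pfkl by 0.25 (SE 0.09, adjusted p = 0.114). With host group in the model 1 of the 13 was called. In the unfolded protein response list 3 of 14 rose (against 3.05% of all genes tested). Among them was Trib3, a pseudokinase induced by stress, which rose by 0.80 (SE 0.17, adjusted p = 0.00825). Other probes of Trib3, detected on 18 and 16 of the 18 arrays, differed by 0.21 and 0.52. Asns and Atf3 rose by 0.36 and 0.98, calls that held in 20 and 11 of 34 alternatives and that leaving out any of 9 and of 12 tumours ended. Other probes of Asns, detected on 17 and 18 of the 18 arrays, differed by 0.74 and 0.20.

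**Figure D4:**
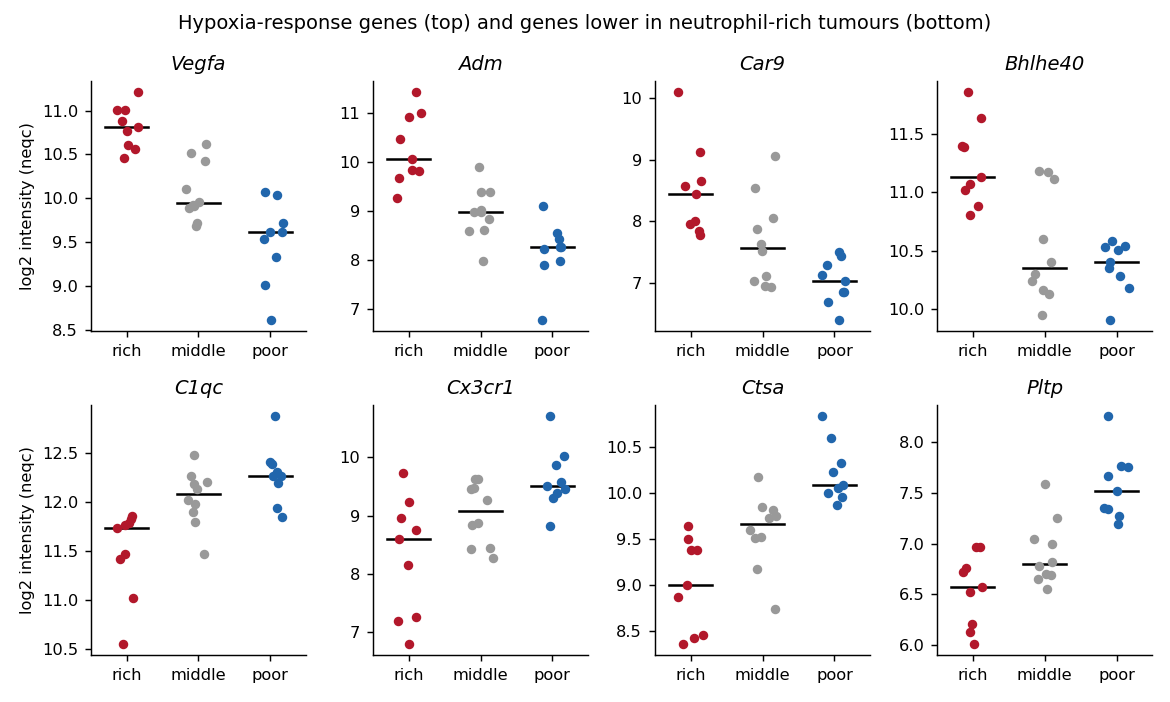
Log2 intensity of 8 genes in single tumours (points) of the neutrophil-rich, middle and neutrophil-poor groups (n = 9, 10 and 9), with group medians as bars. Vegfa, Adm, Car9 and Bhlhe40 lie higher in every neutrophil-rich than in every neutrophil-poor tumour, Ctsa and Pltp lie lower in every one, and C1qc and Cx3cr1 overlap.

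Markers of macrophages split. Of 22 tested monocyte and macrophage genes, 6 fell (against 1.77% of all genes tested) and 3 rose (against 3.05%), with a median of -0.27. C1qc, a chain of complement C1q made by tissue macrophages, stood at 10.56, 11.74 and 11.86 in neutrophil-rich tumours and 11.85, 12.27 and 12.88 in neutrophil-poor tumours. All but 1 neutrophil-rich tumour lay below the lowest neutrophil-poor tumour, and the difference was -0.79 (SE 0.17, adjusted p = 0.0082). Cx3cr1, the fractalkine receptor, stood at 6.81, 8.60 and 9.72 in neutrophil-rich tumours and 8.82, 9.51 and 10.70 in neutrophil-poor tumours, and fell by 1.33 (SE 0.34, adjusted p = 0.0282). Leaving out middle-aged unirradiated replicate 2 or 3 or young unirradiated replicate 10 gave Cx3cr1 an adjusted p between 0.0537 and 0.0608.

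The other 4 that fell, named after their values were seen, were Apoe at -0.84, Trem2 at -0.74, C1qa at -0.70 and C1qb at -0.67. Apoe carries lipids and Trem2 is a lipid-sensing receptor of macrophages. The 3 that rose were Ccl2, a chemokine for monocytes, by 1.00, Nos2, the inducible nitric oxide synthase, by 0.98, and Arg1, arginase 1, by 0.54. Nos2 was detected on 9 neutrophil-rich and 3 neutrophil-poor arrays. Ccl2 was detected on 6 of 6 LLC cell arrays. The general macrophage markers Adgre1 (F4/80), Csf1r and Mrc1 differed by -0.29, -0.57 and -0.14 and did not pass. The pan-myeloid list had a median of -0.12, with 1 of 19 higher and 1 lower (against 3.05% and 1.77% of all genes tested).

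The macrophage calls were the least steady of these lists. Leaving out 1 tumour at a time left between 1 and 7 members lower; the count was 1 without middle-aged unirradiated replicate 2 or 3, 2 without middle-aged irradiated replicate 1 or young unirradiated replicate 8, and 3 without middle-aged irradiated replicate 5 or middle-aged unirradiated replicate 6. Without the 4 tumours with muscle transcripts 3 members were lower and 0 higher, and with no filter on detection 1 of 23 was lower (against 0.682% of all genes) and 2 were higher. By contrast the neutrophil list kept 19 members higher in every leave-one-out fit, the hypoxia list 10 or 11 and the chemokine list 6 or 7. Over all 34 alternatives these 3 lists had at least 14, 7 and 4 members higher, and the macrophage list had 1 to 9 lower.

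The genes with the largest falls were picked by size. Ctsa, cathepsin A, a lysosomal protease, stood at 8.37, 9.01 and 9.65 in neutrophil-rich tumours and 9.87, 10.09 and 10.84 in neutrophil-poor tumours. The groups did not overlap, and the difference was -1.21 (SE 0.18, adjusted p = 0.00052). Its other 3 detected probes differed by -0.16, -0.02 and 0.21, so the change was seen on the brightest probe alone. Pltp, a phospholipid transfer protein, fell by 1.03 (SE 0.15, adjusted p = 0.000472), with 6.02 to 6.97 in neutrophil-rich and 7.19 to 8.26 in neutrophil-poor tumours.

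Pmepa1, which TGF-beta induces, fell by 1.03 (SE 0.16, adjusted p = 0.000687) without overlap, and Mfap4, a microfibril protein of the matrix, by 1.38 (SE 0.34, adjusted p = 0.0233). Vsig4, a complement receptor of resident macrophages, fell by 1.01 (SE 0.22, adjusted p = 0.0106), and Fcrls, a receptor-like protein of macrophages and microglia, by 0.95 (SE 0.24, adjusted p = 0.0263). Slamf9, the lectin receptor Cd72, the carbonyl reductase Cbr2, Ambp and the receptor phosphatase Ptpro made up the rest of the 12 largest falls, between -1.29 and -0.97. Slamf9 kept its call in 17 of 34 alternatives and Cd72 in 23, and leaving out any of 12 tumours ended the call of Slamf9 and any of 6 that of Cd72. Fcrls and Cbr2 lost theirs without any of 3 and of 4 tumours, middle-aged unirradiated replicates 2 and 3 and young unirradiated replicate 4 for both and young unirradiated replicate 9 for Cbr2.

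Red cell genes were among the largest differences. Alas2, the first enzyme of haem synthesis in erythroid cells, stood at 7.07, 10.24 and 12.50 in neutrophil-rich tumours and 5.67, 7.74 and 9.41 in neutrophil-poor tumours. It rose by 2.82 (SE 0.66, adjusted p = 0.0164), but the spread was wide and 3 neutrophil-rich tumours lay within the range of the neutrophil-poor ones. Slc4a1, the band 3 anion exchanger, rose by 2.46 (SE 0.67, adjusted p = 0.0396). The globins Hba-a1 and Hbb-bs differed by 1.08 and 0.84 and did not pass, while of the 5 other probes of Hbb-bs, each detected on all 18 arrays, 4 differed by 0.76 to 0.89 and 1 by 2.53; globin genes are near-identical copies, and their probes may share signal. The mean level of the 8 red cell markers with a probe, of which 6 were tested, was 8.56 to 11.16 in neutrophil-rich and 7.68 to 9.45 in neutrophil-poor tumours. The part of blood in the tissue in the changes of other genes was not tested.

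Red cell values were also set out by host group. Mean Alas2 was 9.71 in 2 neutrophil-rich and 5.67 in 1 neutrophil-poor tumour of middle-aged irradiated hosts, but 7.98 in 2 neutrophil-rich and 7.96 in 4 neutrophil-poor tumours of middle-aged unirradiated hosts. Slc4a1 ran the other way in those middle-aged unirradiated hosts, with means of 6.72 in neutrophil-rich and 7.63 in neutrophil-poor tumours (-0.91). Without the tumours with muscle transcripts Alas2 had an adjusted p of 0.0575 and with 14 tumours at each end 0.112, the highest of its alternatives. Slc4a1 kept its call in 19 of 34 alternatives; its adjusted p was 0.0837 with host group in the model, 0.0530 to 0.0739 where leaving out any of 11 tumours ended the call, and at most 0.105 in any alternative.

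Platelet markers were dim. Of 6 tested 1 was called higher (against 3.05% of all genes tested). It was Tubb1, a tubulin of platelets, which was detected on 5 neutrophil-rich and 0 neutrophil-poor arrays and so passed the filter through the neutrophil-rich arrays alone. By the bound used for Asprv1 the mean of Tubb1 was 1.25-fold higher in neutrophil-rich tumours. Undetected neutrophil-rich arrays entered that mean, so the value is no lower limit. With no filter on detection Tubb1 did not pass (adjusted p = 0.0677). Gp1bb, Gp9 and Gp5 differed by 0.59, 0.44 and 0.25 and did not pass.

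Vessel, matrix and checkpoint lists had 3, 2 and 2 calls. Of 19 endothelial genes 3 rose (against 3.05% of all genes tested). These were Angpt2, an angiopoietin, by 0.81 (SE 0.16, adjusted p = 0.00546), and the junction proteins Cldn5 and Cdh5 by 0.92 and 0.42. The calls of Cldn5 and Cdh5 held in 16 and 17 of 34 alternatives and ended without any of 9 and of 11 tumours, and that of Angpt2 held in all 34. Leaving out 1 tumour moved the count of endothelial genes from 1 higher (without any of 6 tumours, middle-aged unirradiated replicate 3, 5 or 7 or young unirradiated replicate 2, 4 or 10) to 5 higher (without middle-aged irradiated replicate 5). With host group in the model 2 were higher and 1 lower (Eng, by -0.32, adjusted p = 0.0443), with no filter on detection 1 was higher, and with the score as a continuous number 8 were. Of 14 matrix proteases and inhibitors 1 rose and 1 fell (against 3.05% and 1.77% of all genes tested), with a median of 0.43. Mmp13, a collagenase, rose by 1.42 (SE 0.25, adjusted p = 0.00187), while its other 2 detected probes, each seen on 7 of the 18 arrays, differed by 0.54 and 0.24. Adamts1, a matrix protease, fell by 0.72 (adjusted p = 0.0353), a call that held in 17 of 34 alternatives and ended without any of 10 tumours; its other 2 probes, detected on 17 and 16 of the 18 arrays, differed by -0.25 and -0.38.

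Of 9 tested checkpoint and suppression genes of myeloid cells 2 rose (against 3.05% of all genes tested) and 0 fell. Of the 9, 4 lay below 0, and the median was 0.06. Cd274 (PD-L1, a checkpoint ligand) rose by 0.78 (SE 0.19, adjusted p = 0.0204) and Nt5e (CD73, which makes adenosine) by 1.02 (SE 0.23, adjusted p = 0.0135). Nt5e differed by -0.19 in young irradiated hosts (1 neutrophil-rich against 2 neutrophil-poor tumours), and its call ended with the ends chosen again (adjusted p = 0.1001) and with 14 tumours at each end (0.147). The call of Cd274 ended with 14 tumours at each end (0.108), with median scaling (0.0676) and without the tumours with muscle transcripts (0.0516).

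Lymphocyte, antigen presentation and interferon genes gave few calls. Of 20 interferon response genes 1 rose (against 3.05% of all genes tested), although 16 of the 20 lay below 0 and the median was -0.26. It was Rsad2, which encodes the antiviral protein viperin, at 0.86 (SE 0.19, adjusted p = 0.0106). Of 10 genes of MHC class II presentation 0 passed in limma (2 at an unadjusted p under 0.05), and 9 lay below 0, with a median of -0.39. Of 6 tested T and NK cell genes 1, Cd8b1, fell, by 0.34 (adjusted p = 0.0264), against 1.77% of all genes tested that fell. Its call ended with host group in the model (adjusted p = 0.0558) and without any of 4 tumours, middle-aged irradiated replicate 1, young irradiated replicate 3 or young unirradiated replicate 4 or 8 (0.0516 to 0.0521), and its highest adjusted p over the alternatives was 0.186. Prf1 was the 1 member above 0, at 1.06, and did not pass (adjusted p = 0.127), while 5 lay below 0. With the score as a continuous number Prf1 was called higher, by 1.34 (adjusted p = 0.00262). With 7 tumours at each end it was also called higher, by 1.58 (adjusted p = 0.0182). The lists of B and plasma cells, of dendritic cells and of eosinophils, basophils and mast cells had 4, 4 and 6 tested members, of which 0 passed in limma (0, 0 and 1 at an unadjusted p under 0.05).

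Differences were also set out within each host group. Retnlg differed by 3.93 in young unirradiated hosts (4 neutrophil-rich against 2 neutrophil-poor tumours), 3.24 in young irradiated (1 against 2), 2.81 in middle-aged unirradiated (2 against 4) and 2.41 in middle-aged irradiated hosts (2 against 1). Vegfa differed by 1.12, 1.11, 1.55 and 1.18 in the same 4 groups. Of the 320 higher genes 301 had a positive difference in all 4 host groups, and of the 186 lower genes 166 had a negative one. These genes were called on the same tumours, so the counts are a description and no separate support. Of the largest falls, Cbr2, Fcrls and Vsig4 differed by 0.16, 0.12 and 0.02 in young irradiated hosts (1 against 2), and lay below 0 in the other host groups. With host group in the model 302 genes were higher and 167 lower. An interaction of the difference with age called 0 of 10483 genes in limma (614 at an unadjusted p under 0.05), and one with irradiation also called 0 (406 at an unadjusted p under 0.05).

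Over all 28 tumours the genes closest to the score were Hdc (Pearson r = 0.96), Cxcl2 (0.95), Slpi (0.94), Dgat2 (0.92), Cxcr1 (0.91) and Rdh12, Chil1, Retnlg, Asprv1 and G0s2 (0.90, 0.90, 0.90, 0.89 and 0.89). Dgat2 is an enzyme of triglyceride synthesis, Rdh12 a retinol dehydrogenase and Chil1 a chitinase-like protein. The furthest in the other direction were Ctsa (-0.86), Pltp (-0.86), Ttc39a (-0.81), Camk1 (-0.78) and Samd10 (-0.78). These r values describe 28 points that share arrays with the score. Dgat2, Chil1 and Asprv1 were detected on 0 of 9 neutrophil-poor arrays, Rdh12 on 1 and Cxcr1 on 2. These genes passed the detection filter through the neutrophil-rich arrays, so their low end is close to background. The score gene Mmp9 itself, on the intensities used here, had r = 0.50. The median of the middle tumours lay between the medians of both ends for 294 of the 320 higher and 161 of the 186 lower genes.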

How the data were processed

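Per the labels' protocols, total RNA of tumour tissue was amplified and hybridised to Illumina bead arrays, and per the submitters' processing notes the arrays were read with GenomeStudio (no version is stated). The deposited scanner table holds an unnormalized intensity and a detection p-value per probe and array, per the file headers. The value table holds the authors' normalized intensity, on a linear scale; its column medians ran from 134 to 183 and it kept the order of the probes on each array (rank correlation 1.00). The design text names a rank-based normalization, and no further centring is stated. 0.365% of the authors' values lay under the floor of 64.

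The score used the log2 of the authors' deposited intensity. The tests used neqc (background correction by detection p-values with an offset of 16, quantile normalization, log2) and limma 3.58.1 in R 4.3.3, with Benjamini-Hochberg adjustment and a threshold of 0.05. Of 45281 probes, 34885 had 1 gene symbol, and 10378 had none. Each of 19057 genes was represented by its brightest probe over the 28 tumours; 9172 genes had several. Genes detected (p under 0.05) on at least 5 of the 18 arrays were tested, without the 5 score genes. The fit was also run on simulated data with known changes, drawn gene by gene for fixed groups. That run held neither correlation between genes nor a choice of tumours by a score, so it cannot test their effect on the p-values. A bound ("at least") sets the mean of the bright group against the higher of the dim probe and the dimmest detected probe on each array. The number of arrays limits the precision. No chip or batch of the tumours is given in the labels used here.

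Named were the score genes, all neutrophil markers, the 12 largest calls in each direction detected on at least 9 of 18 arrays, up to 4 members with the smallest p in each list described, and the 10 highest and 5 lowest correlations with the score. Other list members are named only with their list. The tumours, members and lists were chosen with earlier results of these data known. Alternatives were the authors' values, other background correction and scaling, other filters, covariates, array weights, other ends, the score as a number, and each tumour left out; the interactions with age and irradiation were added after seeing the data.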

Additional observations from a re-analysis of the deposited data

Results flagged for a closer look

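In 14 of 220 groups of 9 tumours or of host groups that were looked at for single stray samples, the highest or lowest tumour stood far from the others; the limit used is one that chance passes in about 1 in 20 groups. Values are log2 intensities. Among neutrophil-rich tumours, young unirradiated replicate 2, which had the highest score, was highest for Mmp9 (10.69, next 9.72) and for Timp1, an inhibitor of matrix proteases (12.65, next 11.82). Middle-aged unirradiated replicate 6 was lowest for the globins Hba-a1 (13.24, next 14.25) and Hbb-bs (13.52, next 14.40). Middle-aged unirradiated replicate 1 was lowest for Lgals3 (12.90, next 13.56) and for the macrophage gene Cbr2 (7.55, next 8.82). Middle-aged irradiated replicate 4 was lowest for Mrgpra2b (6.51, next 7.03), and young unirradiated replicate 10 for Cstdc4 (7.38, next 8.54).

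Among neutrophil-poor tumours the strays were all on the high side. Middle-aged unirradiated replicate 5 was highest for Cstdc4 (8.69, next 6.89) and Nos2 (6.81, next 5.87). Young unirradiated replicate 7 was highest for Cxcr2 (5.66, next 5.08), young irradiated replicate 3 for Ifitm6 (6.69, next 5.86), middle-aged unirradiated replicate 3 for Cd72 (10.78, next 9.95) and middle-aged unirradiated replicate 2 for Socs3 (12.03, next 11.36).

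The 2 dim arrays that were left out, young irradiated replicates 6 and 8, had scores of 10.19 and 9.68, above the 7.41 of the highest LLC cell array. The first would have ranked among the neutrophil-rich tumours.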

How the results depend on the processing

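Each of the 506 calls kept its direction under each of 34 alternatives in which the gene was tested. The number of calls moved by over 1.5 times under these: median scaling gave 219 (160 higher, 59 lower), array quality weights 811 (349 lower), 7 tumours at each end 957 (497 higher, 460 lower), 14 at each end 211 (148 higher, 63 lower) and the score as a continuous number over 28 tumours 1022 (553 higher, 469 lower). Lower calls alone moved to 112 on the authors' values, 300 with array brightness as a covariate and 113 with the ends chosen again from neqc values, which shared 9 neutrophil-rich and 8 neutrophil-poor tumours. The cause was not tested. Leaving out each tumour in turn gave 325 to 805 calls, 231 to 464 higher and 94 to 341 lower. With 14 tumours at each end 31 of 72 named calls were lost, and with host group in the model 8. Without the tumours with muscle transcripts 16 named calls were lost, and the neutrophil, chemokine and hypoxia lists had 18, 6 and 9 members higher. Over all genes median scaling shifted the median difference to -0.09. The median of the chemokine list was 1.58 with 7 and 0.67 with 14 tumours at each end, and that of the hypoxia list 0.51 with 14. No paired analysis was possible because the groups compared were picked by a score and replicate numbers only name tumours within 4 host groups. Probes near background, such as those of Cxcr2 in neutrophil-poor tumours, limit the sizes of the differences.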

Other observations

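Lists of cell cycle, fibroblast, heat shock, muscle and leukocyte adhesion genes gave 1 call between neutrophil-rich and neutrophil-poor tumours. Of 20 cell cycle genes 1 rose (against 3.05% of all genes tested), Rrm2, a subunit of ribonucleotide reductase, by 0.37. The median was 0.02, and all 20 were detected on 6 of 6 LLC cell arrays. Of 19 fibroblast and collagen genes 0 passed in limma (1 at an unadjusted p under 0.05), with a median of -0.04. Of 11 heat shock proteins 0 passed (3 at an unadjusted p under 0.05), with 10 above 0 and a median of 0.27, and with host group in the model 1 rose. Of 12 tested skeletal muscle genes 0 passed (0 at an unadjusted p under 0.05). The mean level of the 17 with a probe was up to 10.89 in neutrophil-rich and up to 10.97 in neutrophil-poor tumours. Of 9 tested leukocyte adhesion and trafficking genes 0 passed (2 at an unadjusted p under 0.05), with a median of 0.03.

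Sprr2e, a small proline-rich protein of epithelial barriers that was not on any list, was among the 12 largest rises at 2.16 (SE 0.37, adjusted p = 0.00168). It stood at 6.60, 8.37 and 9.22 in neutrophil-rich and 4.83, 6.24 and 7.37 in neutrophil-poor tumours, with 8 of 9 neutrophil-rich tumours above every neutrophil-poor one, and was detected on 0 of 6 LLC cell arrays. Ttc39a, detected on 6 of 6 LLC cell arrays, fell by 0.62 (SE 0.13, adjusted p = 0.00767) without overlap between the groups.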
